A study of Mus musculus with 12 samples.

Results

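Aged and young diploid hepatocytes of the mouse liver were compared by RNA sequencing. The members were chosen by group label alone, as the 3 libraries of diploid cells from aged mice and the 3 from young mice, which makes 6 of the 12 libraries of the series. All mice were of the C57BL/6 strain, the young at 3 months of age and the aged at 27 months, and no treatment or genetic alteration is named in the labels. Hepatocytes were freed by collagenase perfusion and sorted on a reporter and on DNA content measured with Hoechst dye, and libraries were made with a SMART-Seq kit for small amounts of RNA. The other 6 libraries hold polyploid hepatocytes of the same 3 young and 3 aged mice. The sources used here do not give the reporter, the time of day of sampling or the sex of the mice.

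Hepatocytes secrete most plasma proteins and carry out much of the body's drug, bile acid, lipid and amino acid metabolism. Many of them become polyploid as the liver matures, and a smaller number keep a diploid genome. Kupffer cells (the resident macrophages of the liver), endothelial cells, stellate cells and lymphocytes are diploid too. Acute phase proteins are plasma proteins whose synthesis changes with inflammation, and the circadian clock and its output factors set a daily rhythm on many liver genes.

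The 6 diploid libraries held 20133563 to 26760570 gene counts, at which 1 CPM (CPM is a gene's count relative to library depth) is 20.1 to 26.8 counts before any scaling. Levels below are CPM scaled by the TMM factors of edgeR, which were 1.14, 1.70 and 0.972 in aged diploid replicates 1, 2 and 3 and 0.956 to 1.002 in the young diploid libraries. Replicates within an age are separate mice. Hepatocyte-defining genes were abundant in all 6 libraries, and albumin (Alb) was at 52040, 49610 and 54640 CPM in the young and at 41370, 9401 and 64360 CPM in the aged replicates 1, 2 and 3. The level was lowest in aged replicate 2 and within or above the young range in aged replicate 3 only.

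Summed markers of macrophages, endothelial, stellate and B cells were higher in each aged diploid library, by very unequal amounts. The summed level of 25 macrophage, Kupffer cell and monocyte markers was 1162, 991.7 and 1103 CPM in the young and 6646, 28590 and 1729 CPM in the aged libraries. Endothelial cell markers (20 genes) summed to 169.9, 177.4 and 185.4 CPM in the young and 1645, 4195 and 287.8 CPM in the aged libraries. Stellate cell and fibroblast markers (15 genes) summed to 53.2, 24.8 and 45.6 CPM in the young and 700.7, 3013 and 207.1 CPM in the aged libraries. Replicate 2 was highest in each of these sums, replicate 3 lowest and nearest to the young range, and no aged value overlapped the young ones. B and plasma cell markers (10 genes) summed to 1.89 to 4.16 CPM in the young and to 292.1, 279.6 and 15.3 CPM in the aged libraries, and 7 MHC class II genes to 178.6 to 232.1 CPM against 1819, 7136 and 350.3 CPM. T and NK cell markers (15 genes) were at 0.945 to 1.39 CPM in the young and at 5.86, 87.7 and 1.23 CPM in the aged libraries, where replicate 3 lay within the young range. In aged replicate 3, 7 of the 15, Cd3e, Cd3d, Cd4, Gzma, Klrb1c, Ncr1 and Trac, had no count. In the young libraries 8, 5 and 5 of the 15 had none. The 30 hepatocyte identity genes summed to 171900 to 182100 CPM in the young libraries and to 135500, 28730 and 191500 CPM in the aged ones. In bulk RNA, fewer cells of a type and less RNA per cell cannot be told apart.

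**Figure D1:**
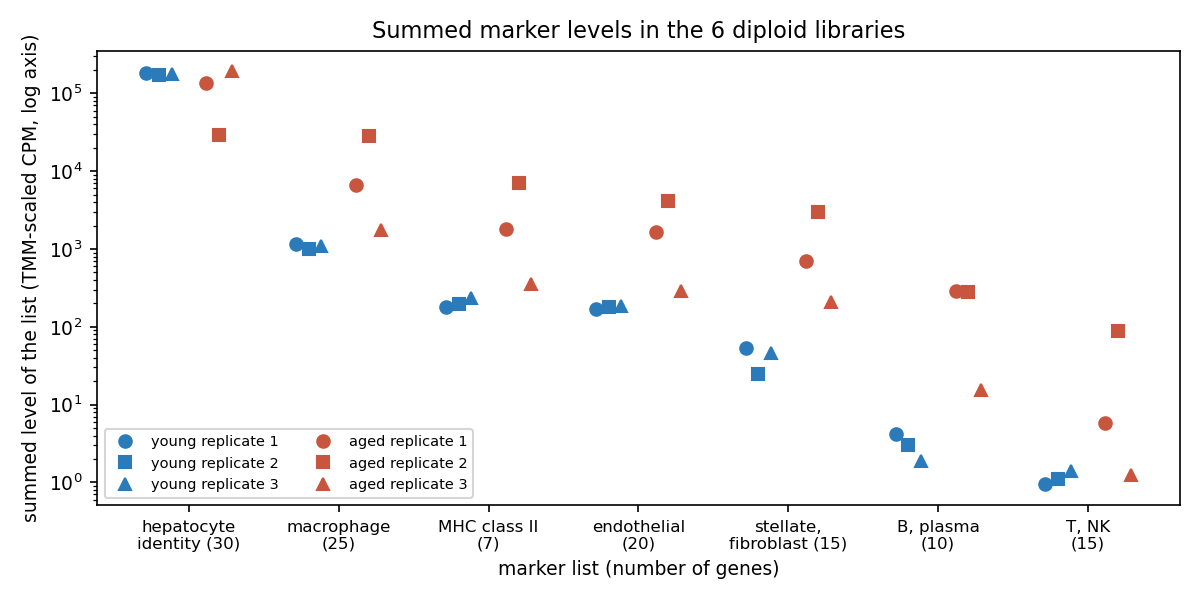
Summed level of 7 marker lists (x axis, number of genes in brackets) in each of the 6 diploid libraries (y axis, TMM-scaled CPM on a log axis; 1 point per library, colour for age, shape for replicate). The aged libraries spread from 1729 to 28590 CPM for macrophage markers while the young ones lie between 991.7 and 1162 CPM, and the hepatocyte identity sum is lowest in aged replicate 2, at 28730 CPM.

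Genes were therefore described in 3 classes set by their level in polyploid libraries, which use no aged diploid library. Hepatocyte-expressed genes (4857 of 14061 tested) had a mean of at least 20 CPM in young or aged polyploid cells, a young polyploid level not far under the young diploid one (a ratio of at least 0.25 after adding 1 CPM to both) and no place in the marker lists of other cells. Of the 4857, 447 reached that mean in the aged polyploid group only and 256 in the young one only. Genes under 1 CPM in both polyploid groups made up 2375, and the other 6829 genes were intermediate. A gene was tested if enough libraries of any group held counts of it. A gene very low in the other groups was therefore tested only through its aged diploid level, and its rise was fixed by that filter. In aged replicates 1, 2 and 3 the median log2 ratio to the young diploid mean (1 CPM added to both) was -0.15, -0.58 and -0.01 for hepatocyte-expressed genes and 0.41, 0.91 and 0.07 for those under 1 CPM in polyploid cells. Both classes moved furthest in replicate 2 and least in replicate 3, the order of the marker sums.

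**Figure D2:**
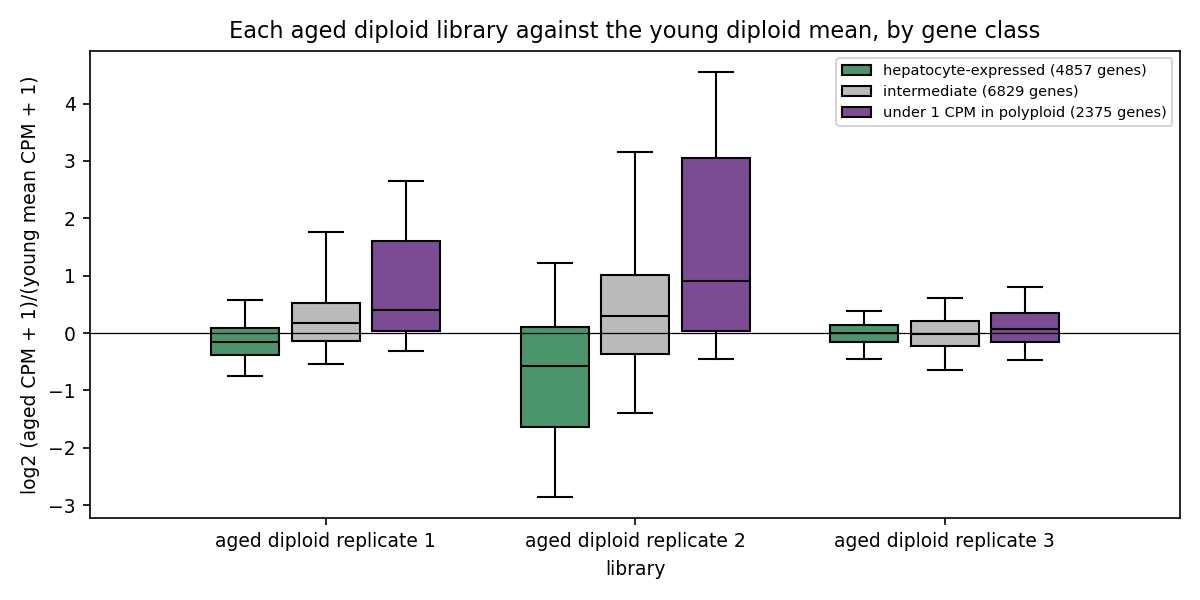
Log2 ratio of each aged diploid library to the young diploid mean, after adding 1 CPM to both (y axis), for the 3 gene classes (colours, number of genes in the legend) in aged replicates 1, 2 and 3 (x axis). Boxes span the quartiles with the median as a line and whiskers reach from the 5th to the 95th percentile of genes; hepatocyte-expressed genes centre on -0.01 in replicate 3 and on -0.58 in replicate 2.

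With age, 528 genes were higher (3.76%) and 24 lower (0.171%) in diploid cells by edgeR's quasi-likelihood test over all 12 libraries, at a Benjamini-Hochberg adjusted p under 0.05, in all 552 of 14061 genes (3.93%). Hepatocyte-expressed genes gave 21 of the higher and 12 of the lower calls, intermediate genes 234 and 12, and genes under 1 CPM in polyploid cells 273 and 0. The direction in this last class is partly fixed by the filter on counts, so the split is no separate result. Of the 21 hepatocyte-expressed genes called higher 11 are in that class through their level in aged polyploid cells only, and of the 12 called lower 4 through their level in young polyploid cells only. The calls lie at the edge of the threshold: 550 of the 552 had an adjusted p from 0.049 to 0.05, and 2 genes, Metap1d and Cyp2c39, were lower than that. The count fell to 4 genes with RLE in place of TMM scaling (3 higher, 1 lower), to 0 in a fit of the 6 diploid libraries alone and to 3 without aged replicates 1 and 2, and it was 2974 without aged replicate 3 (2723 higher, 251 lower). It was 1643 with DESeq2 (1500 higher, 143 lower). Unadjusted p was under 0.05 in 2753 genes, and the 3 aged and 3 young values did not overlap in 1873 genes that were higher (13.3%) and 1065 that were lower (7.57%).

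Of the called genes 5 also passed the test between aged and young polyploid libraries, where 5 were called in all (0.0356%), 4 of them higher (0.0284%) and 1 lower (0.00711%). They are Metap1d, Cyp2c39, Gm4788 and Camk1d among the hepatocyte-expressed genes, all higher in aged cells and all in that class through their aged polyploid level only, and Pls1, an intermediate gene that was lower and was named after its values were seen. These polyploid libraries are other libraries of the same mice. Leaving out aged diploid replicates 1 and 2, which held most of the RNA of other cells, left 3 of 14817 genes (0.0202%), and these were Gm4788, Metap1d and Cyp2c39. The aged diploid group is then 1 library, assumed to vary like the other groups.

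Metap1d encodes a mitochondrial methionine aminopeptidase, an enzyme that trims the first methionine from newly made proteins. It lies on chromosome 2 (GRCm38, 71453276 to 71525194). It had 6, 1 and 1 counts in the young and 319, 515 and 469 counts in the aged diploid libraries, or 0.284, 0.0411 and 0.0385 CPM against 13.85, 15.2 and 19.9 CPM. Every young library was close to the limit of detection and every aged one was well above it, at about the same level in all 3. The summed scaled counts were 144.4 times higher in aged cells, with an exact 95% interval of 73 to 335 that covers counting error only. The fitted log2 difference was 7.08 (SE 0.705, adjusted p = 0.00513), and it was 6.26 in polyploid cells (adjusted p = 0.00405). Across 26 alternative analyses it passed in 23, with log2 differences from 6.62 to 8.46. The gene overlaps the antisense gene Dlx1as, which had 2, 9 and 0 counts in the aged and none in the young diploid libraries, and reads of overlapping genes cannot be told apart here because the strand setting of the counting is not given. Its relatives did not pass: Metap1 differed by -0.25 (adjusted p = 0.566) and Metap2 by 0.15 (adjusted p = 0.715).

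Cyp2c39 encodes a cytochrome P450, one of a cluster of Cyp2c genes on chromosome 19 (39510862 to 39568529). It was at 6.67, 8.91 and 5.16 CPM in the young and at 239.1, 76.2 and 234.3 CPM in the aged diploid libraries. The aged value was lowest in replicate 2, the library with the least hepatocyte RNA, and still above every young value. The log2 difference was 4.73 (SE 0.545, adjusted p = 0.0122) in diploid and 6.59 (adjusted p = 0.00181) in polyploid cells. It passed in 21 of 26 alternatives, with log2 differences from 4.48 to 5.59.

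None of the other Cyp2c genes tested passed. Its close relative Cyp2c38 was at 29.6, 17.2 and 7.71 CPM in the young and at 47.8, 14.7 and 42.6 CPM in the aged diploid libraries, which overlapped (0.95, adjusted p = 0.35). Cyp2c55 was at 63.7, 23.7 and 9.94 CPM in the young and 4.52, 1.502 and 5.84 CPM in the aged libraries, with no overlap (-3.04, adjusted p = 0.0571). Cyp2c50 and Cyp2c54 were at -1.41 (adjusted p = 0.0667) and -1.40 (adjusted p = 0.0826), and the abundant Cyp2c29 at -0.50 (adjusted p = 0.642). Reads shared between near-identical Cyp2c genes may have been split among them by the counting.

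Gm4788, a protein-coding gene model on chromosome 1 (139697623 to 139781243) beside the genes Cfhr2 and Cfhr3, was at 6.24, 13.4 and 6.94 CPM in the young and at 140.9, 38.7 and 179.8 CPM in the aged diploid libraries. As with Cyp2c39, replicate 2 was the lowest aged library and lay above the young range. The log2 difference was 3.75 (SE 0.524, adjusted p = 0.049) in diploid and 4.98 (adjusted p = 0.0059) in polyploid cells, and it passed in 12 of 26 alternatives. The neighbouring pseudogene Cfhr3 was at 0.331, 0.821 and 0.231 CPM in the young and 5.69, 1.94 and 9.01 CPM in the aged diploid libraries (3.57, SE 0.663, adjusted p = 0.049). Cfhr2 (0.33, adjusted p = 0.74) did not pass. In polyploid cells it was at 1.48 (adjusted p = 0.417), with every aged value above the young ones. Reads of Gm4788 and Cfhr3 may be shared between these similar genes.

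The sequences in front of these genes are shown because of the calls in diploid cells. There the neighbours Gm4788 and Cfhr3 were both called, and Cyp2c39 was called while Cyp2c38 was not. In polyploid cells Cyp2c38 was also higher with age, though it did not pass. Each is the part, up to 250 bases, directly before the RefSeq start of the gene (GRCm38.p6) that lies outside the counted gene model, read along the strand of the gene. For Metap1d (chr2:71453088-71453275, plus strand) capitals mark CG dinucleotides. For Cyp2c39 (chr19:39510572-39510821, plus strand) and Cyp2c38 (chr19:39463076-39463325, minus strand) they mark the longest run identical in both, and likewise for Gm4788 (chr1:139781244-139781489, minus strand) and Cfhr3 (chr1:139661007-139661256, minus strand).
Metap1d: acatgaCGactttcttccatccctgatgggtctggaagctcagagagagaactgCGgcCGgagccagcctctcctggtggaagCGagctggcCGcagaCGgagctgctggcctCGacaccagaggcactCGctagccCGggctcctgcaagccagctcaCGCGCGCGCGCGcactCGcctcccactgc
Cyp2c39: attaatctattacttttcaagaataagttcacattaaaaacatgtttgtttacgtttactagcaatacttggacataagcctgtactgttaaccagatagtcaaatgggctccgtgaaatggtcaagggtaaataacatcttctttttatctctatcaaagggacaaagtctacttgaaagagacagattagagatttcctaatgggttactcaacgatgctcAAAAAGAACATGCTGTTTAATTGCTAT
Cyp2c38: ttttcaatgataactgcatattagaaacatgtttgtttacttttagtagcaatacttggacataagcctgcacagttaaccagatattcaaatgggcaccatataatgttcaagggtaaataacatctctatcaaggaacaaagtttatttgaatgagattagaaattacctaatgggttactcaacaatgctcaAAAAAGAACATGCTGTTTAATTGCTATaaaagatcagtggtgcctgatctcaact
Gm4788: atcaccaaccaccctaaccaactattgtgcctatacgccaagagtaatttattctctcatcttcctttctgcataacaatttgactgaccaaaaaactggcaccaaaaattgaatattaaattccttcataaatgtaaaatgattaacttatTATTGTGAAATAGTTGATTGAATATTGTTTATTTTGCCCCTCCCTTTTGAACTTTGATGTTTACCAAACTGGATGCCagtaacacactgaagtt
Cfhr3: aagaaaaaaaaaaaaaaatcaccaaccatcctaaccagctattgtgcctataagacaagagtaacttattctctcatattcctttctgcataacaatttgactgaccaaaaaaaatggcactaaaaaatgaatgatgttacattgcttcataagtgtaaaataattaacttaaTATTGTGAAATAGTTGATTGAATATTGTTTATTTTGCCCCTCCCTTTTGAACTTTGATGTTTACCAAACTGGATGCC
Over 221 aligned bases 89.6% were identical between Cyp2c39 and Cyp2c38, with a longest run of 27 bases. Over 229 aligned bases 93.9% were identical between Gm4788 and Cfhr3, with a longest run of 77 bases. The full 250-base window of Metap1d held 21 CG dinucleotides, more than in 83.7% of 32851 RefSeq windows, whose median was 6. That of Cyp2c39 held 3, that of Gm4788 1, and those of Cyp2c38 and Cfhr3 none. These are descriptions of the sequence in the reference, and no factor or mark was measured here.

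Camk1d, a calcium/calmodulin-dependent protein kinase on chromosome 2 (5293457 to 5714515), was at 15.7, 17.95 and 12.99 CPM in the young and at 60.6, 45.8 and 66.7 CPM in the aged diploid libraries. The aged libraries were close to each other and all above the young ones. It rose by 1.89 in log2 units (adjusted p = 0.049, SE 0.292) and by 2.44 in polyploid cells (adjusted p = 0.0114). It passed in 8 of 26 alternatives, and without aged replicates 1 and 2 it was at 2.08 (adjusted p = 0.169).

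Pls1, the actin-bundling protein plastin 1, on chromosome 9 (95752642 to 95845311), was at 15.6, 17.9 and 15.95 CPM in the young and at 1.65, 1.06 and 2.71 CPM in the aged diploid libraries. The groups were far apart, with little spread within each. It fell by 3.19 in log2 units (adjusted p = 0.049, SE 0.461) and by 3.36 in polyploid cells (adjusted p = 0.0451). It passed in 11 of 26 alternatives and was at -2.62 (adjusted p = 0.494) without aged replicates 1 and 2.

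**Figure D3:**
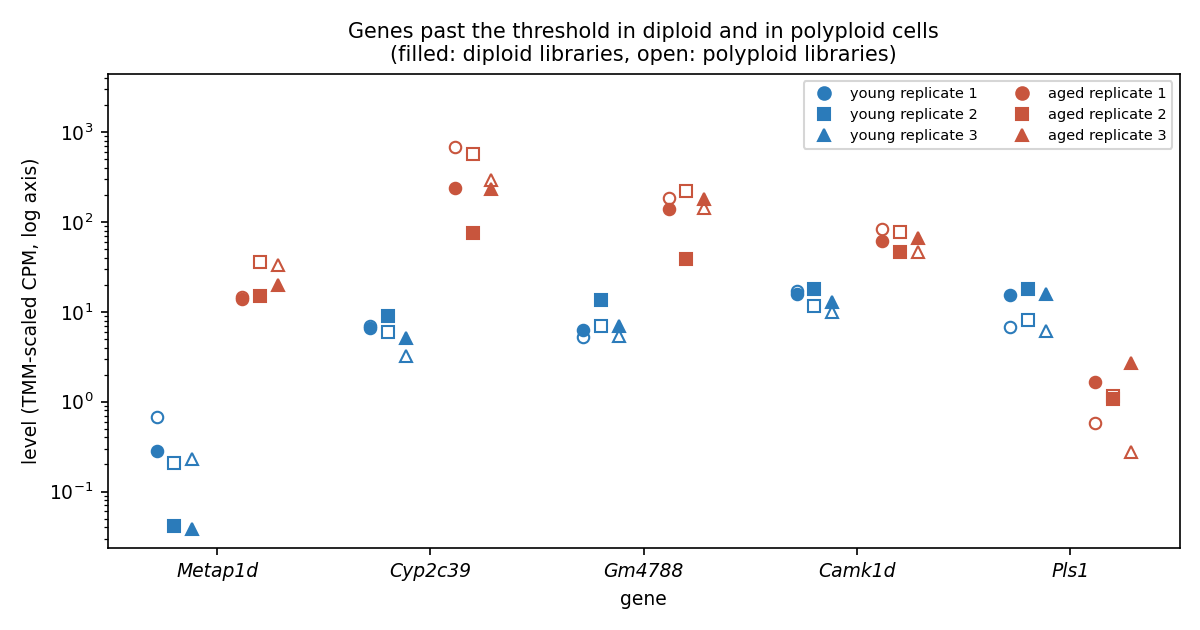
Level (y axis, TMM-scaled CPM on a log axis) of the 5 genes that passed between ages in both fractions (x axis), with 1 point per library; filled points are diploid, open points polyploid, colour gives age and shape the replicate. In diploid cells Metap1d lies at 13.85 to 19.9 CPM in aged and at 0.0385 to 0.284 CPM in young libraries, and Pls1 lies the other way at 1.06 to 2.71 against 15.6 to 17.9 CPM.

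A further 3 genes of that class, in it through their aged polyploid level only, were higher in aged diploid cells and not highest in replicate 2. St3gal6, a sialyltransferase, was at 7.66, 13.2 and 6.59 CPM in the young and 28.4, 27.0 and 24.97 CPM in the aged libraries, which were nearly equal (1.55, SE 0.327, adjusted p = 0.049). Sult1e1, the sulfotransferase that inactivates estrogens, was at 0.709, 2.05 and 0.694 CPM in the young and 8.55, 2.18 and 19.04 CPM in the aged libraries, with the lowest aged value just above the highest young one (3.10, SE 0.741, adjusted p = 0.0492). Npr2, a receptor for a natriuretic peptide, was at 7.66, 3.37 and 3.47 CPM in the young and 18.97, 9.99 and 15.7 CPM in the aged libraries (1.62, SE 0.373, adjusted p = 0.049). In polyploid cells these genes were at 1.51, 3.66 and 2.22 (adjusted p = 0.213, 0.189 and 0.089). Their way into the class fixed the positive sign there, so it is no separate support. Without aged replicates 1 and 2 Sult1e1 was at 4.01 (adjusted p = 0.0645), Npr2 at 1.68 (adjusted p = 0.885) and St3gal6 at 1.43 (adjusted p = 1).

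Of the 21 hepatocyte-expressed genes called higher, 14 were highest in aged replicate 2, the library with the largest marker sums, and 15 were lowest in replicate 3. They included Ly6a, the surface protein Sca-1, at 10.5, 9.08 and 12.1 CPM in the young and 82.5, 644.3 and 16.0 CPM in the aged libraries (4.55, SE 1.15, adjusted p = 0.0493). Gpihbp1, which holds lipoprotein lipase on capillary walls, was at 17.5, 10.5 and 17.5 CPM in the young and 102.9, 325.9 and 23.4 CPM in the aged libraries (3.31, adjusted p = 0.0492). Aqp1, a water channel, was at 43.4, 33.1 and 28.4 CPM against 346.4, 374.4 and 69.4 CPM (2.91, adjusted p = 0.049). In replicate 3 Ly6a and Gpihbp1 were only little above the young range, and Aqp1 was further above it (69.4 against at most 43.4 CPM). Tmsb4x, which binds actin monomers, Lgmn, a lysosomal protease, Atp1b3, a sodium pump subunit, Arpc1b, a subunit of the Arp2/3 complex, Ucp2, a mitochondrial carrier, Unc93b1, which carries Toll-like receptors to endosomes, and Il6st, the shared receptor subunit gp130, ran the same way, from 3.39 for Tmsb4x down to 2.07 for Il6st. Pltp, Tnfaip2, Ndrg1 and Dgkz lay between 1.29 for Dgkz and 2.52 for Pltp. In polyploid cells Ly6a was at 0.999 (adjusted p = 0.771), Gpihbp1 at -1.65 (adjusted p = 0.549) and Aqp1 at -0.88 (adjusted p = 0.637). The class asks for a group mean only. Ly6a was at 14.4, 55.7 and 8.87 CPM in aged polyploid libraries. In young polyploid libraries Gpihbp1 was at 19.75, 10.8 and 42.6 CPM and Aqp1 at 24.2, 20.7 and 57.3 CPM. Macrophage markers were highest in the same libraries, at 401.2 CPM in aged polyploid replicate 2 and 397.3 CPM in young polyploid replicate 3. What part the RNA of other cells has in these calls was not tested. In a fit with the level of macrophage and endothelial markers (log2 of their sum) as a term, 18 of the 21 genes kept their sign and 4 passed. Ly6a (-0.50), Tmsb4x (-0.20) and Arpc1b (-0.034) turned. These markers were higher in every aged than in every young diploid library, so the fit cannot separate marker level from age.

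Of the 4857 hepatocyte-expressed genes 12 fell (0.247%), against 0.171% of all genes. They were Cyp2d9, Saa2, Orm3, Serpina1e, Apoa4, Trib3, Insc, Gm15920, Hspb8, Mt2, Nr1d2 and Lpin2. For all of them but Saa2 the lowest aged value was that of replicate 2, and none passed in polyploid cells (adjusted p of 0.185 or more). Cyp2d9, Orm3, Trib3 and Insc are in the class through their young polyploid level only. That fixed their negative sign in polyploid cells, so it is no separate support. Scaled to the hepatocyte identity genes in place of TMM, which raised the median of all genes from 0.09 to 1.56, Cyp2d9 (-2.16) and Apoa4 (-1.47) still passed (adjusted p = 0.0455 each), and Lpin2 turned to 0.32.

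Cyp2d9, a male-biased cytochrome P450 that hydroxylates testosterone, was at 57.8, 40.5 and 30.9 CPM in the young and at 4.60, 2.21 and 10.03 CPM in the aged diploid libraries, far below every young value. It fell by 2.94 in log2 units (adjusted p = 0.049, SE 0.484) and passed in 8 of 26 alternatives. In polyploid cells it was at -2.31 (adjusted p = 0.185), a sign fixed by its way into the class. The other protein-coding Cyp2d genes tested were between -0.75 for Cyp2d10 (adjusted p = 0.499) and -0.27 for Cyp2d12 (adjusted p = 0.851). Serpina1e, one of several mouse copies of alpha-1-antitrypsin, was at 183.7, 195.7 and 123 CPM in the young and 55.6, 12.4 and 45.3 CPM in the aged libraries and fell by 2.15 (SE 0.471, adjusted p = 0.049). The copies Serpina1a, Serpina1b, Serpina1c and Serpina1d were at -0.80, -0.78, -1.29 and -1.46 (adjusted p from 0.211 to 0.513). Counting may split reads between these copies.

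Acute phase genes gave 3 of the 12. Saa2, a serum amyloid A, was at 31.0, 44.0 and 20.2 CPM in the young and 3.08, 7.66 and 6.43 CPM in the aged diploid libraries (-2.46, SE 0.567, adjusted p = 0.049). Its neighbour Saa1 was at 71.7, 120.9 and 53.5 CPM against 13.6, 28.2 and 19.1 CPM (-2.01, adjusted p = 0.0618). Both were lower in every aged library, and for both replicate 2 was the highest of the aged values. Orm3, an orosomucoid, was at 15.3, 45.2 and 24.7 CPM in the young and 5.77, 3.06 and 6.98 CPM in the aged libraries (-2.43, SE 0.476, adjusted p = 0.049), and Mt2, a metallothionein that binds zinc and copper, at 94.9, 72.5 and 126.8 CPM against 38.6, 27.8 and 49.5 CPM (-1.34, SE 0.317, adjusted p = 0.0492). The abundant acute phase gene Hp, haptoglobin, was at 2895, 4475 and 3919 CPM in the young and 3974, 1103 and 4177 CPM in the aged libraries, which overlapped (-0.29, adjusted p = 0.785). In polyploid cells Saa2 was at -0.32 (adjusted p = 0.857) and the difference between fractions was -2.14 (adjusted p = 0.33).

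Apoa4, an apolipoprotein of triglyceride-rich particles, was at 223.8, 247 and 250.7 CPM in the young and 44.2, 17.6 and 103.2 CPM in the aged diploid libraries (-2.13, SE 0.516, adjusted p = 0.0492). Lpin2, a phosphatidate phosphatase of glycerolipid synthesis, was at 77.7, 88.5 and 91.6 CPM in the young and 57.4, 34.3 and 38.8 CPM in the aged libraries (-0.98, SE 0.247, adjusted p = 0.0492). Both were lower in all aged libraries. Trib3, a pseudokinase induced by amino acid and endoplasmic reticulum stress, was at 15.65, 27.2 and 12.8 CPM in the young and 5.08, 2.68 and 6.81 CPM in the aged libraries (-1.94, SE 0.435, adjusted p = 0.049), while Atf4, its activator, was at -0.01 (adjusted p = 0.984). Hspb8, a small heat shock protein, was at 113.6, 104.2 and 111.1 CPM against 42.9, 24.2 and 57.7 CPM (-1.40, SE 0.299, adjusted p = 0.049). Insc, an adaptor of spindle orientation, was at -1.79 and the pseudogene model Gm15920 at -1.48.

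Nr1d2, the clock repressor REV-ERB beta, was at 65.7, 68.7 and 64.3 CPM in the young and 27.7, 17.5 and 37.5 CPM in the aged diploid libraries (-1.26, SE 0.308, adjusted p = 0.0492). Dbp, a clock-driven transcription factor of the intermediate class, was at 9.27, 11.01 and 4.78 CPM in the young and 0.868, 2.18 and 1.23 CPM in the aged libraries and fell by 2.54 (SE 0.567, adjusted p = 0.049). In polyploid cells Dbp was at -3.57 (adjusted p = 0.089) and Nr1d2 at -0.08 (adjusted p = 0.942). The related genes Nr1d1 (-1.09, adjusted p = 0.169) and Tef (-0.90, adjusted p = 0.0792) did not pass, nor did Arntl, an activator of the clock (0.53, adjusted p = 0.396). Time of sampling was not tested.

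**Figure D4:**
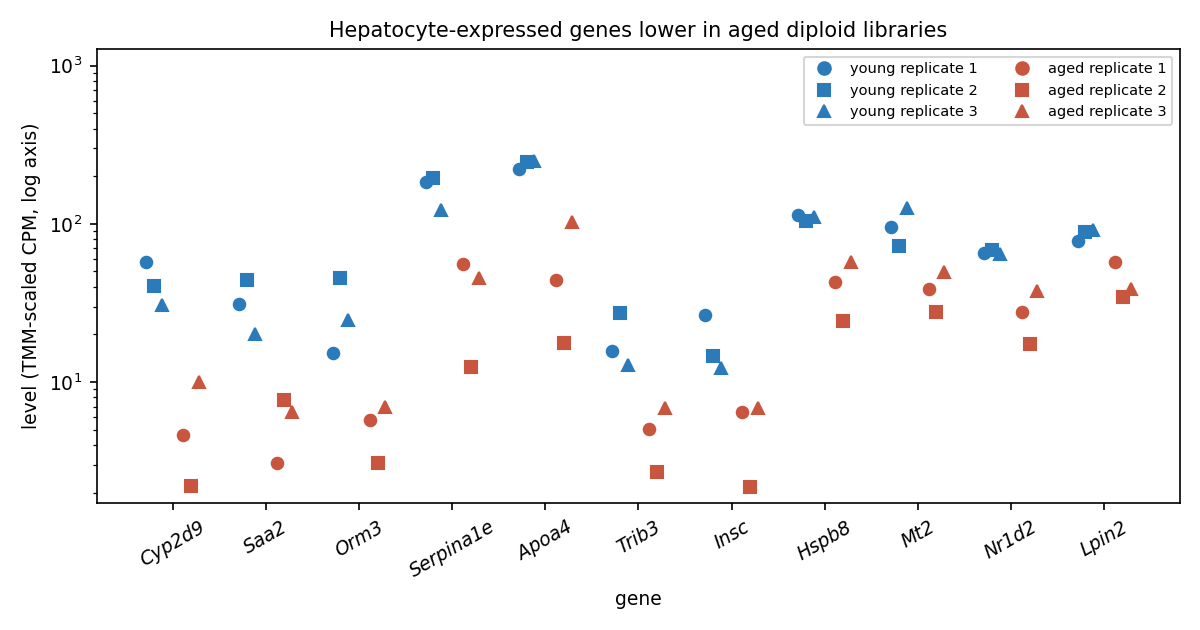
Level (y axis, TMM-scaled CPM on a log axis) of the hepatocyte-expressed genes that were lower in aged diploid cells, without the model gene Gm15920 (x axis), with 1 point per diploid library, colour for age and shape for replicate. In each gene the 3 aged libraries lie under the 3 young ones, as for Cyp2d9 at 2.21 to 10.03 against 30.9 to 57.8 CPM.

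Of the other 11 intermediate genes that fell, 10 are named here, after their values were seen, and they were Ptgds (prostaglandin D synthase), Cib3, Aqp4 (a water channel), Amn (amnionless), Gm47528, Hsd3b2 (a steroid dehydrogenase), Scnn1a (a sodium channel subunit), Pdzk1ip1, Eif3j2 and Dbp. Their log2 differences ran from -4.01 for Ptgds to -1.15 for Eif3j2. Aqp4 was at 3.69, 7.47 and 5.86 CPM in the young and 0.434, 0.206 and 1.02 CPM in the aged libraries, and it still passed when scaled to the hepatocyte identity genes. Pdzk1ip1 was at 6.86, 4.48 and 5.55 CPM in the young and 1.69, 1.97 and 2.58 CPM in the aged libraries, and was at -1.96 in polyploid cells (adjusted p = 0.089). Eif3j2 (0.26) lost its direction when scaled to the hepatocyte identity genes.

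Because the aged libraries differ so much in makeup, genes were also listed by size alone, as those at least 2-fold from the young diploid mean in each of the 3 aged libraries after adding 1 CPM to both, with no test and with the genes named after their values were seen. Among hepatocyte-expressed genes 5 were higher and 29 lower, against 109 (0.775%) and 55 (0.391%) of all genes tested. The 5 higher were Metap1d, Cyp2c39, Gm4788, Camk1d and St3gal6, all in the class through their aged polyploid level only. All 5 were called by the test, which uses the same diploid libraries and so is no separate support. Of the 29 lower, 8 were called and 25 had no overlap between ages. After scaling to the hepatocyte identity genes all 5 higher and 8 of the 29 lower genes kept a 2-fold difference in each aged library, among the latter Cyp2d9, Serpina1e, Apoa4, Cyp2c55, Hamp2, Ly6d and Kcnt2.

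Several of these 29 act in lipid synthesis or drug oxidation and did not pass the test. Scd1, the desaturase that makes oleic acid, was at 6770, 3337 and 2485 CPM in the young and 827.5, 554.7 and 1045 CPM in the aged diploid libraries (-2.38, SE 0.746, adjusted p = 0.0868). Thrsp, a lipogenic protein, was at 695.6, 329.1 and 396.2 CPM against 133.2, 50.3 and 198.4 CPM (-1.90, adjusted p = 0.0618), and Acss2, which makes acetyl-CoA from acetate, at 1034, 792.6 and 499.9 CPM against 276.3, 85.1 and 361.6 CPM (-1.69, adjusted p = 0.066). The 3 aged values of each lay below the 3 young ones. Cyp3a11, a main drug-oxidising P450, was at 18270, 8786 and 8071 CPM in the young and 1822, 1206 and 4627 CPM in the aged libraries (-2.20, adjusted p = 0.0798), and Hsd3b3, a steroid dehydrogenase, at 156, 123.5 and 131.9 CPM against 46.0, 11.5 and 66.9 CPM (-1.73, adjusted p = 0.0574). Hamp2, a paralog of the hepcidin gene Hamp, was at 611.6, 230.2 and 422 CPM in the young and 7.86, 4.45 and 88.7 CPM in the aged libraries (-3.65, SE 1.12, adjusted p = 0.08). Hamp itself, which is not among the 29, was at 773.6, 199 and 287.4 CPM against 60.5, 114.4 and 254.9 CPM, which overlapped (-1.55, adjusted p = 0.251). Apoc4, Upp2, Plk3 and Itih5, genes of various functions, also did not pass, with every aged value below the young ones. Igfbp1, Nfe2, Golim4 and Kcnt2 were low against a young mean raised by 1 or 2 young libraries, with overlapping values.

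Gene lists of hepatocyte functions were mostly a little lower in aged diploid cells, with few members past the threshold. Of 22 lists with at least 60% of their tested genes in the hepatocyte-expressed class, 20 had a median log2 difference below 0 against 0.09 for all genes tested and -0.22 for the class itself. The direction depends on the scaling, since the median of hepatocyte-expressed genes was -0.22 with TMM, 0.10 with library totals and 1.04 scaled to the hepatocyte identity genes. Scaled to the hepatocyte identity genes the medians of 6 lists were below 0. By library the median was below 0 in 17, 20 and 14 of the 22 lists in aged replicates 1, 2 and 3, and replicate 2 gave by far the lowest values.

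Cholesterol synthesis and uptake was the list lowest in replicate 3. None of its 25 genes was positive and none passed, and the median was -0.89, against -0.22 for hepatocyte-expressed genes. In 19 of the 25 genes the aged values lay under the young ones without overlap (76%, against 13% of hepatocyte-expressed genes), and the medians in aged replicates 1, 2 and 3 were -0.58, -2.19 and -0.44. Insig1, which holds back the pathway's regulator SREBP, was at 306, 421.6 and 230.9 CPM in the young and 212.7, 69.1 and 176.2 CPM in the aged libraries (-1.07, adjusted p = 0.21). Sqle, squalene epoxidase, was at 199.6, 295.8 and 193.8 CPM against 164.7, 47.3 and 145.8 CPM (-0.95, adjusted p = 0.296), and Pmvk at 72.3, 54.6 and 59.85 CPM against 41.2, 18.15 and 37.2 CPM (-0.95, adjusted p = 0.0759). All 3 were lower in each aged library. In polyploid cells 13 of the 25 were positive with a median of 0.02. Scaled to the hepatocyte identity genes the median was -0.03.

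Fatty acid and triglyceride synthesis (28 tested) had 1 member that fell, Apoa4, 4 positive members and a median of -0.57, with -0.33 in replicate 3. Acute phase proteins (25 tested) had 3 that fell, Saa2, Orm3 and Mt2 (12%, against 0.171% of all genes), and a median of -0.63. Circadian clock genes (19 tested) had 2 that fell, Nr1d2 and Dbp, and a median of -0.49. Amino acid breakdown and the urea cycle (30 tested) and nuclear genes of oxidative phosphorylation (34 tested) had no positive and no passing member, with medians of -0.76 and -0.65, but with -0.08 and -0.09 in replicate 3. Drug and xenobiotic metabolism (50 tested) had 1 that rose, Cyp2c39, and 1 that fell, Cyp2d9 (2% each, against 3.76% and 0.171% of all genes). Its median was -0.58, with 0.04 in replicate 3. Sex-biased and growth hormone-responsive genes (28 tested) had 2 that fell, Cyp2d9 and Serpina1e, with a median of -0.28. The lists of hepatocyte identity (30), liver transcription factors (20), bile acid synthesis (24), one-carbon metabolism (22), lysosome (29) and insulin and nutrient signalling (30) had no passing member. Protein folding stress (26 tested) and heat shock genes (20) had 1 that fell each, Trib3 and Hspb8, with medians of -0.16 and -0.03.

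Members of other metabolic lists that rose are genes with their highest level in aged replicate 2. They were Ucp2 among fatty acid oxidation genes (30 tested, median -0.49), Pkm and Hk1, enzymes of glycolysis outside the hepatocyte, among glucose and glycogen genes (30, median -0.49), and C6 among complement and coagulation factors (28, median -0.44). Slc40a1, the iron exporter ferroportin, and Hmox1, which breaks down heme, rose while Mt2 fell among iron and metal genes (25, median -0.33), and Hmox1 was the member that rose among oxidative stress genes (24, median -0.51). In the order given, 3.33%, 6.67%, 3.57%, 8% and 4.17% of the lists rose, against 3.76% of all genes. With so few calls these are values of single genes and no result about the lists.

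**Figure D5:**
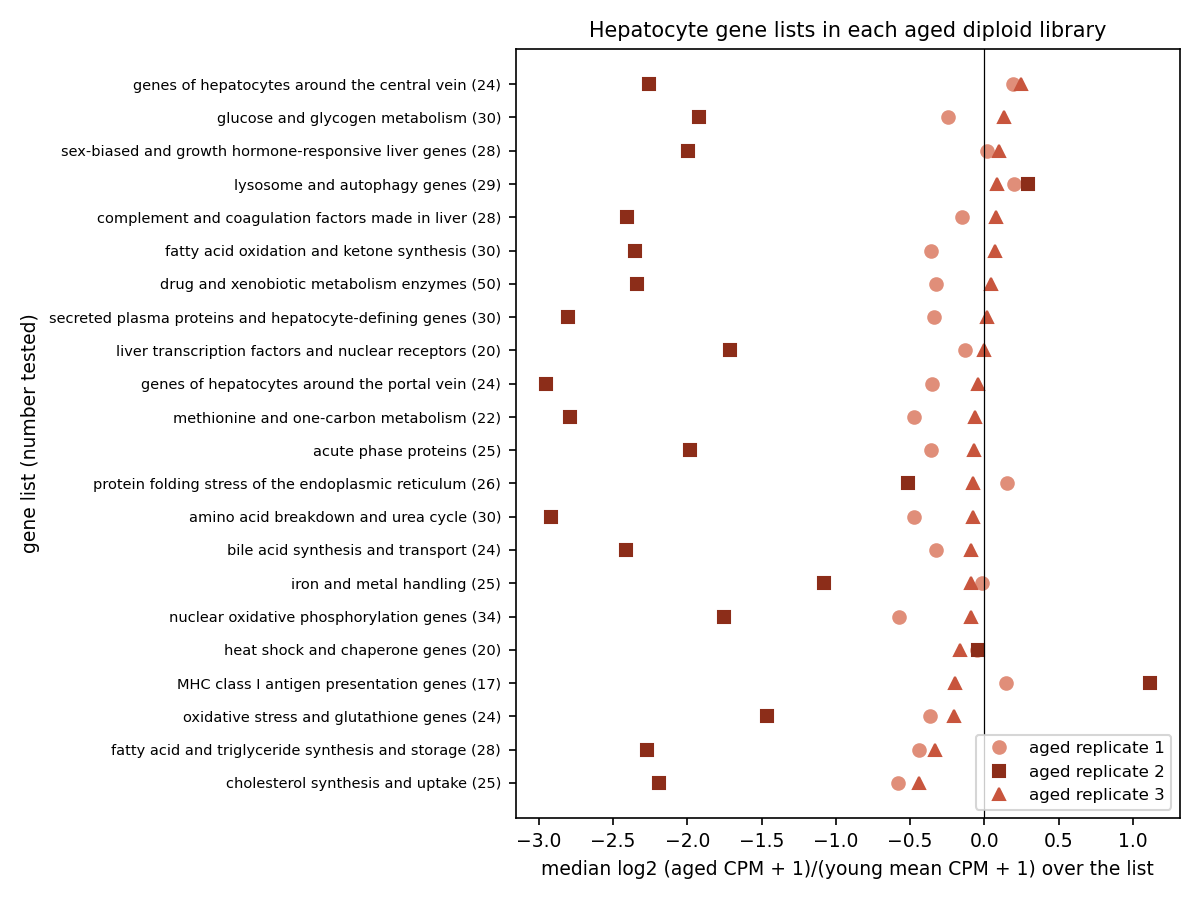
Median log2 ratio to the young diploid mean, after adding 1 CPM to both (x axis), of 22 lists with at least 60% hepatocyte-expressed genes (y axis, number tested in brackets), with 1 point per aged diploid library. Replicate 2 spreads far to the left, to -2.95, while replicate 3 stays between -0.44 for cholesterol synthesis and uptake and 0.25 for genes of hepatocytes around the central vein.

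Zonation genes did not pass, with the exception of Apoa4 on the list of genes around the portal vein. Glul, glutamine synthetase of the hepatocytes next to the central vein, was at 106.4, 40.1 and 39.2 CPM in the young and 345.2, 65.6 and 200.6 CPM in the aged diploid libraries, which overlapped (1.72, SE 0.618, adjusted p = 0.134). Slc1a2, a glutamate transporter of the same cells, was at 15.8, 6.08 and 6.59 CPM against 117.2, 7.78 and 77.9 CPM (2.83, SE 0.853, adjusted p = 0.0759). Aged replicates 1 and 3 were high in both genes and replicate 2 was not. Axin2, a Wnt target, was at 1.29 (adjusted p = 0.307), Cyp2e1 of the central zone at -0.50 (adjusted p = 0.681) and Cyp2f2 of the portal zone at -0.90 (adjusted p = 0.428). The median of 24 genes around the central vein was 0.19, -2.26 and 0.25 in aged replicates 1, 2 and 3, and that of 24 genes around the portal vein -0.35, -2.95 and -0.04. Among single genes of growth and arrest, these 3 did not pass: the cyclin Ccnd1 was at 2.35 (adjusted p = 0.0913), Mki67 at 2.72 (adjusted p = 0.304) and Cdkn1a at 0.95 (adjusted p = 0.286), each with its highest aged value in replicate 2.

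Several cell type marker, matrix and secretory lists had members that rose. Of 20 endothelial markers 16 rose, of 12 tested stellate cell and fibroblast markers 9, of 25 macrophage markers 8 and of 7 MHC class II genes 6, against 3.76% of all genes. All of these list members were positive. Any member very low in the other groups could be tested only through its aged diploid level, which fixes its sign. B and plasma cell markers (3 tested) had 2 that rose, none of the neutrophil (2), dendritic (3) or red cell markers (3) tested passed, and no T or NK cell marker had enough counts to be tested. Extracellular matrix and fibrosis genes (19 tested) had 8 that rose and a median of 3.60, senescence-associated secreted factors (14 tested) 4 and a median of 2.71, and inflammatory cytokines, chemokines and NF-kappaB targets (21 tested) 3 and a median of 2.04. In aged replicate 3 these 3 medians were 0.47, 0.36 and -0.13, and in polyploid cells -0.24, 0.26 and -0.07. Igfbp7 was at 19.9, 16.5 and 23.6 CPM in the young and 202.9, 600.1 and 33.4 CPM in the aged diploid libraries, and Plk2, a p53 target, at 13.05, 11.95 and 11.8 CPM against 67.5, 158.4 and 12.2 CPM. Both rose by the test and neither was far from the young level in replicate 3. Fetal and tumour-associated genes (19 tested) had 4 that rose, Anxa2, Vim, Tmsb4x and Tmsb10, p53 targets (22) had Pmaip1 and Plk2, cell cycle genes (29) had Ccnd2, bile duct markers (4) had Tspan8, and MHC class I genes (17) had none. Interferon-stimulated genes (36 tested) had 1 that rose, Xaf1, and a median of 1.15, with 0.55, 2.01 and -0.11 in aged replicates 1, 2 and 3. The part of other cells' RNA in these lists was not tested.

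Among genes under 1 CPM in polyploid cells the largest rises that reached 10 CPM on average in aged diploid cells were those of Gdf3 (7.22), Gem (6.47), Enpp6 (6.21), S1pr3 (6.09), Trem2 (6.05) and Jchain (5.87). The young diploid means of Gdf3, Gem, S1pr3 and Trem2 were 0.120, 0.111, 0.167 and 0.150 CPM. These genes were tested only through their aged diploid level, so the direction of their change was fixed by the filter on counts. Trem2, a receptor of macrophages, was at 0.0473, 0.287 and 0.116 CPM in the young and 1.39, 28.6 and 1.27 CPM in the aged diploid libraries. Jchain, the joining chain of secreted antibodies, was at 1.80, 1.07 and 0.655 CPM against 27.8, 173 and 4.78 CPM. Ighm, the heavy chain of IgM and a marker of the B cell list, was at 0.945, 0.862 and 0.27 CPM against 232, 65.9 and 8.34 CPM and rose by 7.21 (SE 1.24, adjusted p = 0.049). The aged libraries were above the young ones in all 3 genes, with replicate 2 highest for Trem2 and Jchain and replicate 1 highest for Ighm.

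No gene passed the test of whether the change with age differed between diploid and polyploid cells (0 of 14061, 0%). Unadjusted p was under 0.05 in 1545 genes, the smallest adjusted p was 0.249, and DESeq2 called 489. The main fit has no term for the mouse that a diploid and a polyploid library share. Limma voom with a random effect per mouse also called 0 genes for this difference. A call in one fraction alone does not show that the fractions differ. For Metap1d the difference between fractions was 0.82 (adjusted p = 0.817), for Cyp2c39 -1.86 (adjusted p = 0.33), for Gm4788 -1.22 (adjusted p = 0.553) and for Pls1 0.17 (adjusted p = 0.962).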

How the data were processed

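The authors deposited 1 table of raw gene counts for each library, and these deposited counts are the unit of every value here. Per the submitters' processing notes, the tools were Trimmomatic 0.36, STAR 2.5.2b and featureCounts of Subread 1.5.2 on GRCm38, with no strand setting named. Of 49315 gene IDs 49056 were named from a GENCODE M21 annotation, and the unnamed 259 held 0.008% of counts. From the counts, edgeR 4.0.16 (R 4.3.3) with filterByExpr kept 14061 genes, and 4 group means over all 12 libraries were fitted by quasi-likelihood with TMM scaling and Benjamini-Hochberg adjustment at 0.05. The libraries held 17413153 to 26760570 counts. Alternatives used limma 3.58.1 and DESeq2 1.42.0. The fit was also run on simulated counts, with the same mean and spread per gene in every group apart from changes put into the aged diploid libraries. Those counts lack the unequal makeup of the real aged diploid libraries, so they cannot show how the fit handles it.

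The members and lists were chosen with earlier results of these data known. Genes named by rule were passing hepatocyte-expressed genes with groups that do not overlap and at least 10 CPM in the higher group (up to 12 each way), the 6 largest increases among genes under 1 CPM in polyploid cells, up to 4 passing members of each list (otherwise the 2 of smallest p), genes also passing in polyploid cells, and Alb, Cyp2e1, Cyp2f2, Glul, Cdkn1a, Ccnd1, Mki67 and Axin2. Diploid and polyploid libraries of the same number come from the same mouse, and over 8852 genes their deviations from the group means correlated at 0.379 to 0.687. A few genes are not reported here. Across ages a shared number joins different mice.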

Additional observations from a re-analysis of the deposited data

How the results depend on the processing

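Called genes, given as higher then lower, with hepatocyte-expressed ones after the comma: RLE scaling gave 3 and 1, 3 and 0; upper quartile scaling 2 and 0, 2 and 0; scaling to the hepatocyte identity genes 1457 and 8, 119 and 6. No filter gave 1901 and 122, 66 and 70, and a mean of at least 5 CPM gave 4 and 1, 4 and 0. DESeq2 gave 1500 and 143, 84 and 81, limma voom, with a random effect per mouse, 5 and 2, 3 and 1, and robust dispersions 2 and 0, 2 and 0. The 6 diploid libraries alone gave 0 and 0, 0 and 0, where 2088 genes had an unadjusted p under 0.05. The replicate block gave 4 and 0, 2 and 0; it pairs no mice across ages. The marker sum as a covariate gave 6 and 0, 4 and 0, and leaving out aged diploid replicates 1 and 2 gave 3 and 0, 3 and 0. Library totals gave 756 and 21, 33 and 14, and TMM over hepatocyte-expressed genes 782 and 22, 35 and 14. With a class minimum of 50 CPM 3 and 7 hepatocyte-expressed genes were called, and with 10 CPM 37 and 14. Leaving out each library in turn gave 0 to 2723 higher and 0 to 251 lower genes, and 0 to 188 and 0 to 170 hepatocyte-expressed ones, the highest of each without aged diploid replicate 3. The test of a difference between fractions called 0 genes except with DESeq2 (489), with no filter (690) and without aged diploid replicate 3 (762). Of all calls 95.7% were higher, against 75% with RLE and 71.4% with voom.

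With the marker sum as a covariate the sign turned for Ly6a (-0.50), Tmsb4x (-0.20), Arpc1b (-0.034), H2-Eb1 (-0.041), C6 (-0.17), Hmox1 (-0.45), Cxcl16 (-0.14), Plk2 (-0.24), Pmaip1 (-0.15), Ccnd2 (-0.26), Anxa2 (-0.053) and Vim (-0.007). Plk2 was also at -0.026 without aged diploid replicates 1 and 2. Scaled to the hepatocyte identity genes, Lpin2 (0.32) and Eif3j2 (0.26) turned. The cause of these changes was not tested. With 3 mice per age, and aged diploid replicates 1 and 2 far above the young libraries in RNA of other cells, the spread within the aged diploid group is wide.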
